A study of Bos taurus with 12 samples.

Results

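The genes described here belong by name to families of enzymes and receptors that attach ubiquitin to proteins or remove it. They were chosen by symbol: E1 activating enzymes (UBA1 to UBA7), E2 conjugating enzymes (UBE2), cullins (CUL), F-box proteins (FBXO, FBXL and FBXW) and ubiquitin-specific proteases (USP). The array annotation named 89 such genes through 130 probe sets, of 9155 genes and 24016 probe sets in all. The 89 genes were 5 E1, 26 E2, 4 cullin, 27 F-box and 27 USP genes, each read on its probe set of highest mean signal. Some match by name more than by activity. Among them, UBE2V1 and UBE2V2 lack the catalytic cysteine of the E2 enzymes, and USP39 is a splicing factor without protease activity in human cells. UBA3 serves the cullin modifier NEDD8 in place of ubiquitin.

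Ubiquitin reaches a target through a cascade. An E1 enzyme activates ubiquitin, an E2 enzyme carries it, and an E3 ligase brings the loaded E2 to the target, which is often then degraded by the proteasome. In the SCF ligases, the cullin CUL1 holds SKP1 and an F-box protein, and the F-box protein picks the target, while deubiquitinases such as the USP enzymes take ubiquitin off again. In early mammalian embryos this system clears proteins stored in the oocyte, at the time when stored maternal RNA is also lost and the embryonic genome becomes active.

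The RNA came from pools of embryos of Japanese Black cattle, all made by maturing and fertilizing oocytes in vitro, with frozen-thawed semen, and culturing them in the same media. The 4 groups were expanded day 7 blastocysts from oocytes of prepubertal heifers, day 7 blastocysts from oocytes of adult cows, 8-16-cell embryos of day 3 (70 to 72 h after insemination) from prepubertal heifers, and 8-16-cell embryos of the same age from adult cows. Each group had 3 arrays, each from its own pool of 10 blastocysts or 50 8-16-cell embryos chosen for normal morphology. The heifers were 9 to 12 months old, and the adult ovaries came from an abattoir. The labels call the pools biological replicates and do not say whether any of them had donors, semen or culture runs in common, so the p-values measure only the spread between these pools. Because stage also sets the number of embryos per pool, stage and pool size cannot be told apart. The sample titles also give each stage its own range of numbers. The labels do not say what these numbers mean, and stage cannot be told apart from them either.

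The arrays carry a signal intensity per probe set, given here as log2(signal + 16). A gene is called above background on an array where its signal exceeds the brightest of 27 control probe sets for Bacillus subtilis genes on that array. The third array of prepubertal 8-16-cell embryos stood apart, with a background signal of 1664 against at most 424 on the other 11 arrays. Affymetrix's hybridization controls were 3.03-fold brighter on prepubertal 8-16-cell arrays than on adult ones (exact two-sided permutation p = 0.1, the smallest that 3 arrays against 3 allow). In blastocysts the ratio was 1.06 (exact two-sided permutation p = 0.9). The stage markers that were called followed the labels: the epithelial genes KRT18, KRT8 and LGALS3 were called higher and the oocyte genes BMP15 and KPNA7 lower in blastocysts of both donor groups. IFNT2 of the first list and GDF9 and NLRP5 of the second were not called in either group. The summed signal of 4 oocyte markers was 141 to 658 in prepubertal blastocysts and 158 to 334 in adult blastocysts, against 50029 to 254696 in prepubertal and 30239 to 54743 in adult 8-16-cell embryos. Of 10 markers of cumulus and granulosa cells, AMH, FSHR, INHA, LHCGR and PTX3 were never above background, and HAS2 and STAR were above it on 8 arrays each. The summed signal of these 10 was 1539 to 1944 in prepubertal and 1677 to 3837 in adult blastocysts, against 1555 to 14729 in prepubertal and 1491 to 4314 in adult 8-16-cell embryos. STAR fell in prepubertal blastocysts (log2 difference −5.43, limma's adjusted p = 0.0203), and its part in the results on that comparison was not tested. HAS2 went the other way, with all blastocyst arrays above all 8-16-cell arrays in both donor groups, but was not called in either. Of the 4 sperm and 4 blood markers, none was above background on more than 2 arrays.

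Most of the ubiquitin genes were detected. Of the 89, 67 were above background on at least 3 arrays, 18 on 1 or 2, and FBXW9, UBE2J2, USP20 and USP50 on none. Prepubertal blastocysts had 52.3 ± 2.5 of the 89 genes above background and adult blastocysts 47.7 ± 2.3, against 35.0 ± 19.1 in prepubertal and 52.3 ± 3.5 in adult 8-16-cell embryos (SD, n = 3 each). Of all 9155 genes, 46.5% were above background in prepubertal and 38.1% in adult blastocysts, against 21.8% in prepubertal and 36.8% in adult 8-16-cell embryos. The array of high background had 13 of the 89 genes above it, against 45 to 56 on each of the other 11 arrays. UBE2D2, UBE2D3, UBE2E1, UBE2Q1, USP10 and USP33 were above background on all 12 arrays. UBE2E1, an E2 enzyme that works with many ligases, varied least among them: it ranged over 1.46 on the log2 scale, between 16.17 and 17.64, across all groups. UBE2D2 ranged over 4.59, and its 3 adult 8-16-cell arrays alone read 11.46, 10.99 and 15.34.

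Between the stages, the ubiquitin genes that passed the test all fell in blastocysts, and none rose. In the prepubertal group, FBXL4, FBXO33, USP33 and USP46 fell (limma's moderated test, Benjamini-Hochberg adjusted p under 0.05 over all probe sets). That is 4.49% of the 89 genes, against 2.34% of all probe sets called in either direction, 1.43% called higher and 0.912% called lower. In the adult group, FBXL4, FBXO33, FBXO34, USP2 and USP33 fell. They are 5.62% of the 89, against 2.13% of all probe sets called in either direction, 1.26% called higher and 0.87% called lower. Over the 9155 genes, each on its brightest probe set as here, the share called in either direction was 3.95% in the prepubertal and 3.17% in the adult group, of which 1.39% and 1.33% of genes were lower. At an unadjusted p under 0.05, 4 genes were higher and 10 lower in prepubertal blastocysts, against 13.8% of all probe sets in either direction. In adult blastocysts 4 were higher and 15 lower, against 11.1%. The arrays of the 2 stages did not overlap for 11 genes that were lower and 5 that were higher in prepubertal blastocysts (12.4% and 5.62% of the 89, against 9.24% and 7.35% of all probe sets, and 8.91% and 10.8% of the 9155 genes). In adult blastocysts this held for 17 genes that were lower and 6 that were higher (19.1% and 6.74% of the 89, against 7.62% and 9.55% of all probe sets, and 8.92% and 12.1% of the 9155 genes). These arrays measure pools, in which fewer cells of a type and less RNA per cell cannot be told apart. Without the third array of prepubertal 8-16-cell embryos, the count of genes that fell was 3 in the prepubertal group (FBXO33, UBE2W and USP33) and 7 in the adult group, with FBXO15 and UBE2W added to the 5. Without array 1 of prepubertal 8-16-cell embryos, 5 genes were called in the prepubertal group, of which UBE2K rose (log2 difference 4.31). Every signal was also floored at the highest background, that of the third prepubertal 8-16-cell array. FBXO33 and USP33 were then the only ones of the 5 still called in the adult group. There FBXL4 was at −0.31, FBXO34 at −1.25 and USP2 at −1.22 on the log2 scale.

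**Figure D1:**
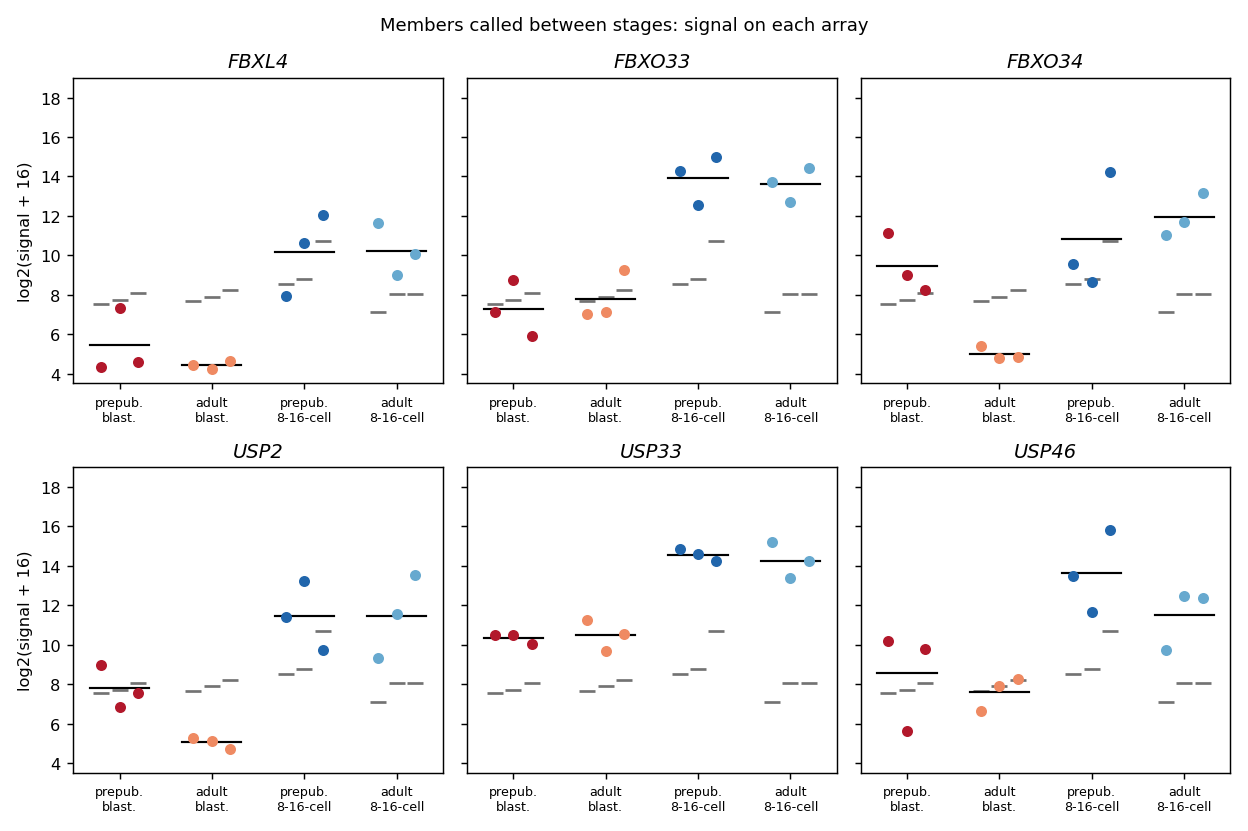
Signal of the 6 ubiquitin genes called between stages, as log2(signal + 16) on the vertical axis, on each array (points) of the 4 groups on the horizontal axis, with the group mean as a black line and each array's background as a grey tick. For FBXO33 and USP33 all blastocyst arrays sit below all 8-16-cell arrays in both donor groups.

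In each donor group the largest stage difference was that of an F-box gene. FBXO33, which in human cells recruits the RNA-binding protein YBX1 to an SCF ligase, read 7.14, 8.73 and 5.88 in prepubertal blastocysts and 14.29, 12.55 and 14.97 in prepubertal 8-16-cell embryos. It read 7.03, 7.14 and 9.24 in adult blastocysts and 13.72, 12.69 and 14.45 in adult 8-16-cell embryos. No blastocyst array came within 3 log2 units of an 8-16-cell array of the same donor group. The log2 difference of FBXO33 was −6.69 in the prepubertal group (SE 1.36, limma's adjusted p = 0.000471) and −5.82 in the adult group (SE 1.36, limma's adjusted p = 0.00477). A second probe set for FBXO33 gave −5.94 and −6.28 in these groups and was called in both, with limma's adjusted p = 0.00633 in the prepubertal and limma's adjusted p = 0.00428 in the adult group. FBXO33 was called in both donor groups under each of the 22 alternative settings, among them the removal of any single array.

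FBXL4 encodes an F-box protein of the outer mitochondrial membrane, which in human cells restrains the removal of mitochondria. It read 4.33, 7.35 and 4.60 in prepubertal blastocysts, all at background, and 7.91, 10.61 and 12.04 in prepubertal 8-16-cell embryos. In adult blastocysts it read 4.45, 4.25 and 4.62, also at background, against 11.65, 8.99 and 10.06 in adult 8-16-cell embryos. Neither donor group had overlapping stages. Where every array of the dimmer group lay at background, the fold is given as a lower bound, with each dim signal raised to its array's background. Arrays of the brighter group entered as read, and where any of these also lay at background the fold is no strict bound. By this measure FBXL4 was 5.29-fold lower in prepubertal blastocysts (log2 difference −4.76, SE 1.44, limma's adjusted p = 0.0474). That is no strict bound, since the 7.91 of prepubertal 8-16-cell embryos also lay at background. FBXL4 was at least 4.93-fold lower in adult blastocysts (log2 difference −5.79, SE 1.44, limma's adjusted p = 0.00916). The prepubertal call was lost without array 2 or array 3 of prepubertal 8-16-cell embryos (−4.55 and −3.84), without array 1 or array 3 of prepubertal blastocysts (−4.21 and −4.35), and without any 1 adult blastocyst array (−4.76 each time). The adult call was lost without the first adult 8-16-cell array (−5.08) or the second adult blastocyst array (−5.70). A second FBXL4 probe set, above background on 3 arrays, differed by −0.15 in the prepubertal and −0.30 in the adult group and was not called.

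FBXO34, which in mouse oocytes has been tied to the meiotic divisions, fell in the adult group. It read 5.38, 4.77 and 4.82 in adult blastocysts, all at background, and 11.05, 11.71 and 13.14 in adult 8-16-cell embryos. FBXO34 was at least 16.4-fold lower in adult blastocysts (log2 difference −6.97, SE 1.48, limma's adjusted p = 0.00131), and no single array removed that call. In the prepubertal group the stages overlapped, with 11.14, 9.02 and 8.26 in blastocysts and 9.58, 8.67 and 14.22 in 8-16-cell embryos (log2 difference −1.35, limma's adjusted p = 0.757). The difference between these 2 stage changes was 5.63 (SE 2.09) and did not pass (limma's adjusted p = 0.873). A second FBXO34 probe set gave −0.23 in the prepubertal and −1.78 in the adult group, neither of them called.

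Most F-box genes had a negative stage difference. In the prepubertal group 22 of 27 had a negative stage difference (81.5%, against 53.4% of the 9155 genes), with a median of −0.86 against −0.16 for all genes. In the adult group 20 of 27 were negative (74.1%, against 46.4%), with a median of −1.44 against 0.13. With the genes that are dim in 1 stage set at their bound, the F-box median was −0.35 in the prepubertal and −0.05 in the adult group. The median of the 27 was below 0 under quantile normalization, median centring and pseudocounts of 1 and 64 as well. The fitted differences spanned −6.69 to 2.01 in the prepubertal and −6.97 to 3.49 in the adult group.

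Some F-box genes that are well known from cell division or stem cells did not pass. FBXW7, the SCF receptor for cyclin E and MYC, read 11.45, 8.80 and 5.37 in prepubertal blastocysts and 13.51, 12.58 and 12.63 in prepubertal 8-16-cell embryos. Its log2 difference was −4.37 (SE 1.40, limma's adjusted p = 0.0703) in the prepubertal and −2.75 (SE 1.40, limma's adjusted p = 0.455) in the adult group, where the stages overlapped. Without the first prepubertal blastocyst array the FBXW7 difference was −5.82 and passed. FBXO15, a gene that mouse embryonic stem cells express under OCT4, read 8.33, 4.26 and 5.29 in adult blastocysts and 9.59, 10.82 and 11.79 in adult 8-16-cell embryos. The FBXO15 difference there was −4.77 (SE 1.49, limma's adjusted p = 0.063). It passed without the first adult blastocyst array (−5.96) or the third prepubertal 8-16-cell array (−4.77), which enters only the estimate of spread. In the prepubertal group the FBXO15 difference was −0.94. A second FBXO15 probe set, above background on 2 arrays, gave −1.23 in the prepubertal and −0.79 in the adult group, neither of them called. FBXO5, an inhibitor of the anaphase-promoting complex, differed by −2.41 (SE 1.50) in the prepubertal and −0.05 (SE 1.50) in the adult group. Without the array of high background, the prepubertal FBXO5 difference was −4.57. FBXO36 was the F-box gene with the largest positive value: it read 7.69, 8.12 and 8.51 in adult blastocysts and 4.88, 4.57 and 4.40 in adult 8-16-cell embryos, at least 1.29-fold higher (log2 difference 3.49, SE 1.21, limma's adjusted p = 0.114).

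**Figure D2:**
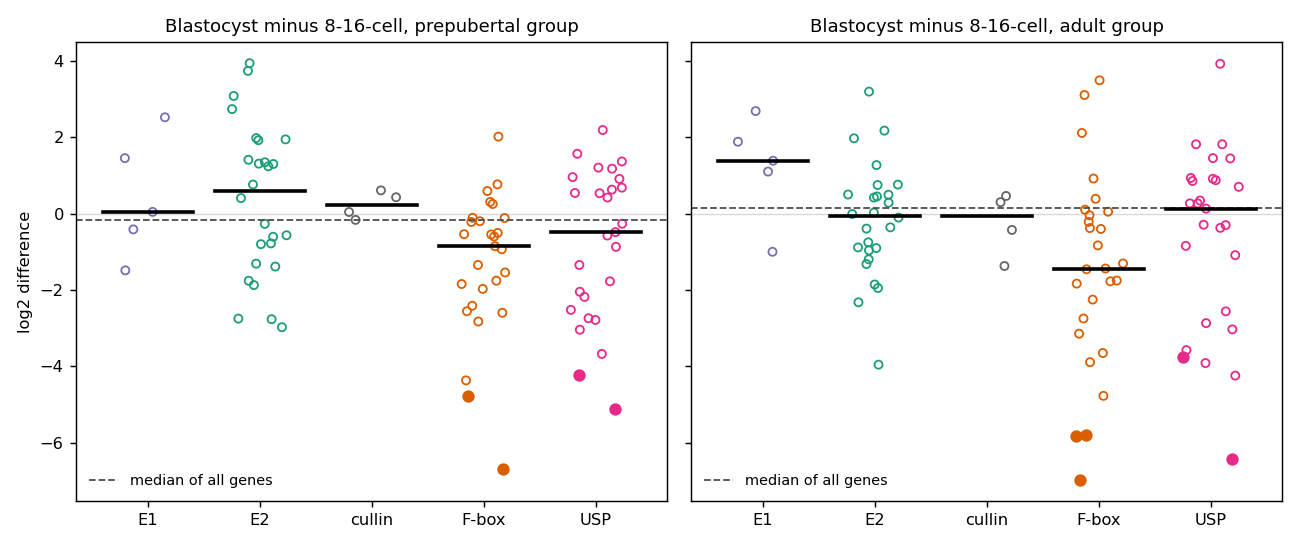
Log2 stage difference (blastocyst minus 8-16-cell, vertical axis) of each gene by family (horizontal axis), in the prepubertal group on the left and the adult group on the right. Filled points passed limma's test, the black lines are family medians and the dashed line is the median of all genes. The filled points are F-box and USP genes, all below 0.

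Of the deubiquitinases, USP33, USP46 and USP2 passed in at least 1 donor group. USP33, which in human cells stabilizes the centriole protein CP110 and the receptor ROBO1, was above background on every array. It read 10.48, 10.50 and 10.06 in prepubertal blastocysts and 14.87, 14.59 and 14.24 in prepubertal 8-16-cell embryos. In adult embryos it read 11.27, 9.70 and 10.55 in blastocysts and 15.21, 13.37 and 14.23 in 8-16-cell embryos. The stages were apart in both donor groups, and the 2 blastocyst groups overlapped each other. The USP33 difference was −4.22 in the prepubertal (SE 1.10, limma's adjusted p = 0.0133) and −3.76 in the adult group (SE 1.10, limma's adjusted p = 0.0384). The prepubertal call was lost without array 1 (−4.29) or array 3 (−4.08) of prepubertal blastocysts. The adult call was lost without array 1 (−3.30) or array 3 (−3.78) of adult 8-16-cell embryos, or without array 1 (−4.14), 2 (−3.36) or 3 (−3.79) of adult blastocysts. A second USP33 probe set gave −2.53 in the prepubertal and −2.63 in the adult group and was not called.

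USP46 works with the cofactor WDR48, which raises its activity in human cells. It read 10.19, 5.64 and 9.79 in prepubertal blastocysts and 13.51, 11.65 and 15.80 in prepubertal 8-16-cell embryos. In adult embryos it read 6.64, 7.91 and 8.29 in blastocysts and 9.73, 12.47 and 12.38 in 8-16-cell embryos. Stages did not overlap in either group. The USP46 difference was −5.11 in the prepubertal group (SE 1.41, limma's adjusted p = 0.0228) and −3.91 in the adult group (SE 1.41, limma's adjusted p = 0.138), which did not pass. The prepubertal call was lost without array 1 (−5.18) or array 3 (−4.04) of prepubertal 8-16-cell embryos or the second prepubertal blastocyst array (−3.66). A second USP46 probe set gave −0.97 in the prepubertal and −0.80 in the adult group.

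USP2, a deubiquitinase of cyclin D1 and MDM2 in human cells, read 5.29, 5.12 and 4.71 in adult blastocysts, all at background, and 9.31, 11.55 and 13.54 in adult 8-16-cell embryos. It was at least 11.6-fold lower in adult blastocysts (log2 difference −6.43, SE 1.48, limma's adjusted p = 0.00428). That call was lost without the third adult 8-16-cell array (−5.39). In prepubertal embryos USP2 read 8.97, 6.85 and 7.56 in blastocysts and 11.42, 13.24 and 9.74 in 8-16-cell embryos, also without overlap, but the difference of −3.67 (SE 1.48) did not pass (limma's adjusted p = 0.199). USP3, a deubiquitinase of histones H2A and H2B, was at least 5.75-fold lower in adult blastocysts, with a log2 difference of −4.24 (SE 1.45) that did not pass (limma's adjusted p = 0.105).

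USP14 sits on the proteasome and trims ubiquitin from its substrates. It read 11.45, 9.45 and 5.17 in prepubertal blastocysts and 9.97, 10.35 and 9.78 in prepubertal 8-16-cell embryos, which overlapped (log2 difference −1.35, SE 1.47). In adult embryos it read 12.16, 12.27 and 10.59 in blastocysts and 7.78, 8.73 and 6.76 in 8-16-cell embryos, which did not overlap (log2 difference 3.92, SE 1.47, limma's adjusted p = 0.169). A second USP14 probe set, above background on 5 arrays, had the opposite signs, with 0.76 in the prepubertal and −0.81 in the adult group. The median of the 27 USP genes was −0.49 in the prepubertal and 0.13 in the adult group. The adult value changed sign to −0.06 with quantile normalization, −0.02 with median centring and −0.08 with a pseudocount of 64. The median of all probe sets was 0.08 in the adult group, and −0.03, −0.07 and 0.05 with these settings.

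Of the 26 E2 genes, none passed in either group, where 4 were higher and 2 lower at an unadjusted p under 0.05 in the prepubertal group, and 1 higher and 2 lower in the adult group. UBE2D3, an E2 enzyme shared by many ligases, was above background on every array. It read 13.35, 12.36 and 12.79 in prepubertal blastocysts and 14.94, 15.26 and 16.55 in prepubertal 8-16-cell embryos. In adult embryos it read 12.27, 12.60 and 14.02 in blastocysts and 14.68, 15.26 and 14.53 in 8-16-cell embryos. The stages did not overlap in either group. The UBE2D3 difference was −2.75 in the prepubertal group (SE 0.84, limma's adjusted p = 0.0512) and −1.86 in the adult group (SE 0.84, limma's adjusted p = 0.337). Without the first prepubertal 8-16-cell array, it was −3.07 in the prepubertal group and passed.

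**Figure D3:**
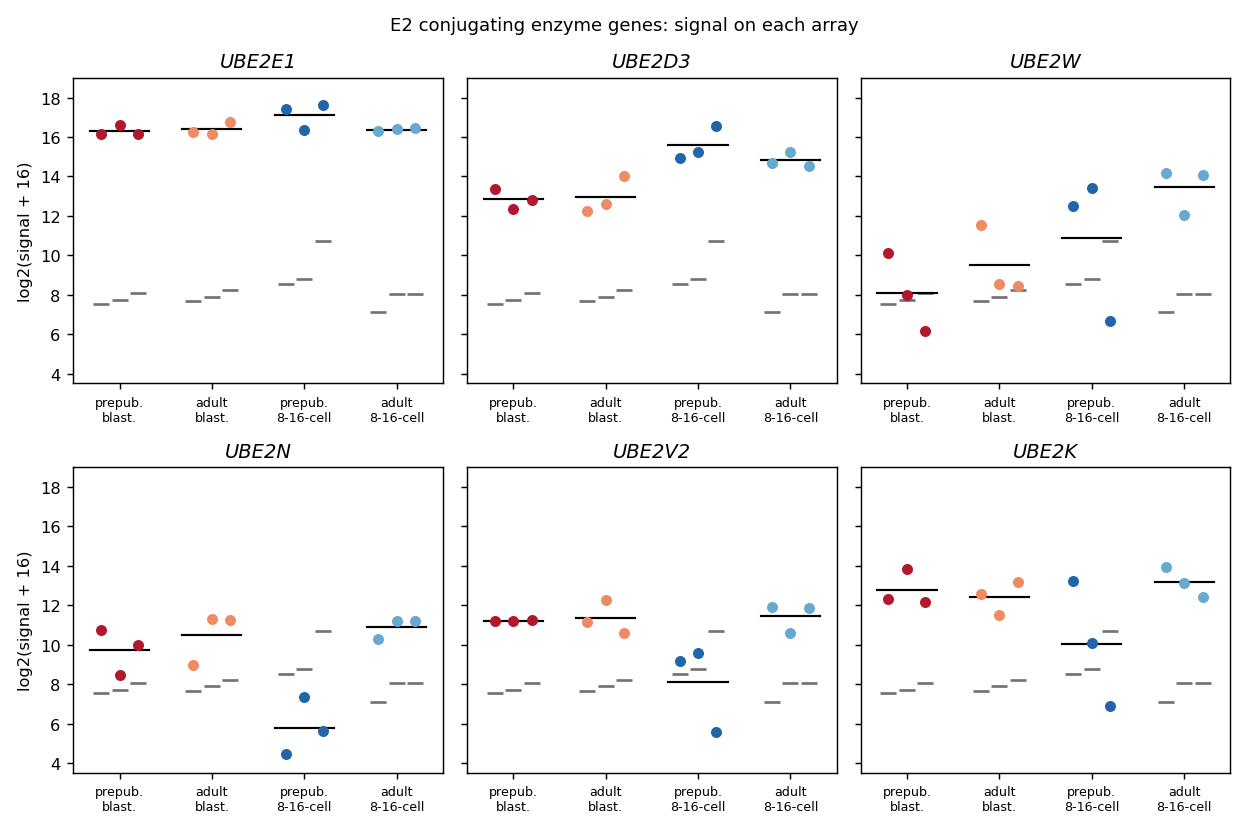
Signal of 6 E2 genes, as log2(signal + 16) on the vertical axis, on each array (points) of the 4 groups on the horizontal axis, with the group mean as a black line and each array's background as a grey tick. UBE2E1 varies least, and UBE2N lies at background on all 3 prepubertal 8-16-cell arrays.

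UBE2W, which in human cells attaches ubiquitin to the amino end of proteins, read 11.52, 8.53 and 8.43 in adult blastocysts and 14.20, 12.06 and 14.08 in adult 8-16-cell embryos. Its difference was −3.96 (SE 1.41, limma's adjusted p = 0.134) and passed without the third prepubertal 8-16-cell array, at the same −3.96. In prepubertal embryos UBE2W read 10.14, 8.00 and 6.14 in blastocysts and 12.50, 13.43 and 6.65 in 8-16-cell embryos, where the 6.65 came from the array of high background (log2 difference −2.77, SE 1.41). UBE2Q1 had a difference of −2.98 (SE 1.09, limma's adjusted p = 0.14) in the prepubertal group, without overlap, and −1.32 in the adult group. UBE2G2, an E2 enzyme of protein degradation at the endoplasmic reticulum, read 12.08, 9.54 and 10.04 in prepubertal blastocysts and 4.73, 8.27 and 7.46 in prepubertal 8-16-cell embryos. It was at least 2.31-fold higher there (log2 difference 3.73, SE 1.45, limma's adjusted p = 0.175). A second UBE2G2 probe set, above background on 1 array, had the opposite sign there, with −0.45.

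UBE2N joins with UBE2V1 or UBE2V2 to build ubiquitin chains linked through lysine 63, which act in signalling and DNA repair more than in degradation. UBE2N read 10.73, 8.48 and 9.97 in prepubertal blastocysts and 4.45, 7.34 and 5.60 in prepubertal 8-16-cell embryos, the 8-16-cell arrays all at background. It read 8.97, 11.33 and 11.23 in adult blastocysts and 10.30, 11.21 and 11.20 in adult 8-16-cell embryos. The prepubertal 8-16-cell group was below the other 3 groups on every array. The prepubertal stage difference was at least 1.30-fold (log2 difference 3.93, SE 1.47) and did not pass (limma's adjusted p = 0.148). UBE2V2 read 11.19, 11.19 and 11.24 in prepubertal blastocysts and 9.20, 9.61 and 5.58 in prepubertal 8-16-cell embryos. In adult embryos UBE2V2 read 11.15, 12.25 and 10.62 in blastocysts and 11.90, 10.57 and 11.87 in 8-16-cell embryos. A second UBE2V2 probe set, named here after its value was seen, rose in prepubertal blastocysts by 4.88 (limma's adjusted p = 0.0424), while the chosen one gave 3.08 (SE 1.37) and was not called.

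The E2 enzymes of the anaphase-promoting complex did not pass. UBE2C, which starts ubiquitin chains on cyclin B, read 11.42, 10.07 and 10.60 in prepubertal blastocysts and 11.42, 13.30 and 6.15 in prepubertal 8-16-cell embryos. Its difference was 0.40 (SE 1.31), and −1.67 without the array of high background, which gave the 6.15. In adult embryos UBE2C read 10.48, 12.00 and 10.55 in blastocysts and 10.73, 14.29 and 13.86 in 8-16-cell embryos (log2 difference −1.95, SE 1.31, limma's adjusted p = 0.674). UBE2S, which lengthens those chains, was above background on 2 arrays and differed by −0.27 (SE 1.42) in the prepubertal and 0.42 (SE 1.42) in the adult group. Without the array of high background, the prepubertal UBE2S difference was 0.35.

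Neither the 5 E1 genes nor the 4 cullin genes passed, and none of them had an unadjusted p under 0.05. UBA1, the main activating enzyme of ubiquitin, read 12.69, 11.13 and 12.86 in prepubertal blastocysts and 11.77, 10.21 and 10.36 in prepubertal 8-16-cell embryos (log2 difference 1.45, SE 1.28). In adult embryos it read 13.66, 11.58 and 10.99 in blastocysts and 7.74, 11.69 and 11.16 in 8-16-cell embryos (log2 difference 1.88, SE 1.28). Both pairs of stages overlapped. UBA3, the catalytic subunit of the enzyme that activates the cullin modifier NEDD8, read 11.15, 11.68 and 11.19 in prepubertal blastocysts and 10.95, 9.82 and 5.70 in prepubertal 8-16-cell embryos (log2 difference 2.52, SE 1.49, limma's adjusted p = 0.467). The 5.70 came from the array of high background, without which the UBA3 difference was 0.96. In the adult group the UBA3 difference was 2.68 (SE 1.49, limma's adjusted p = 0.523). CUL1, the SCF scaffold, read 11.51, 7.44 and 10.60 in prepubertal blastocysts and 8.08, 8.76 and 12.59 in prepubertal 8-16-cell embryos. Its difference was 0.04 (SE 1.47) in the prepubertal and −0.43 (SE 1.47) in the adult group, and 1.43 in the prepubertal group without the array of high background. The differences of all 4 cullins spanned −0.17 to 0.61 in the prepubertal and −1.37 to 0.46 in the adult group.

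The stage differences of the 2 donor groups come from separate arrays, but both tests use the same estimate of a gene's spread over all arrays. Calls shared by the donor groups are therefore not independent. FBXL4, FBXO33 and USP33, 3 of the 89 genes, were called in both, which is 75% of the prepubertal and 60% of the adult calls. Of the 9155 genes, 362 were called in the prepubertal and 290 in the adult group, and 125 in both. Those 125 are 1.37% of genes, and 0.779% of all probe sets were called in both. The sign was the same in both donor groups for 59 of the 89 genes (66.3%, against 61.7% of genes), with 36 below 0 in both (40.4%, against 30.8%). The blastocyst arrays were all below the 8-16-cell arrays in both donor groups for UBE2D3, FBXL4, FBXO33, USP10, USP2, USP28, USP33 and USP46. Those 8 genes are 8.99% of the 89, against 2.57% of genes, while 0 of the 89 had all blastocyst arrays above in both, against 4.73% of genes. USP10, a deubiquitinase of p53 in human cells, was among these with small differences of −1.77 in the prepubertal and −1.09 in the adult group (SE 0.88 each). USP28, which in human cells opposes FBXW7 at MYC, differed by −2.52 and −2.56 in these groups (SE 1.48 each). Neither gene passed in either group.

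**Figure D4:**
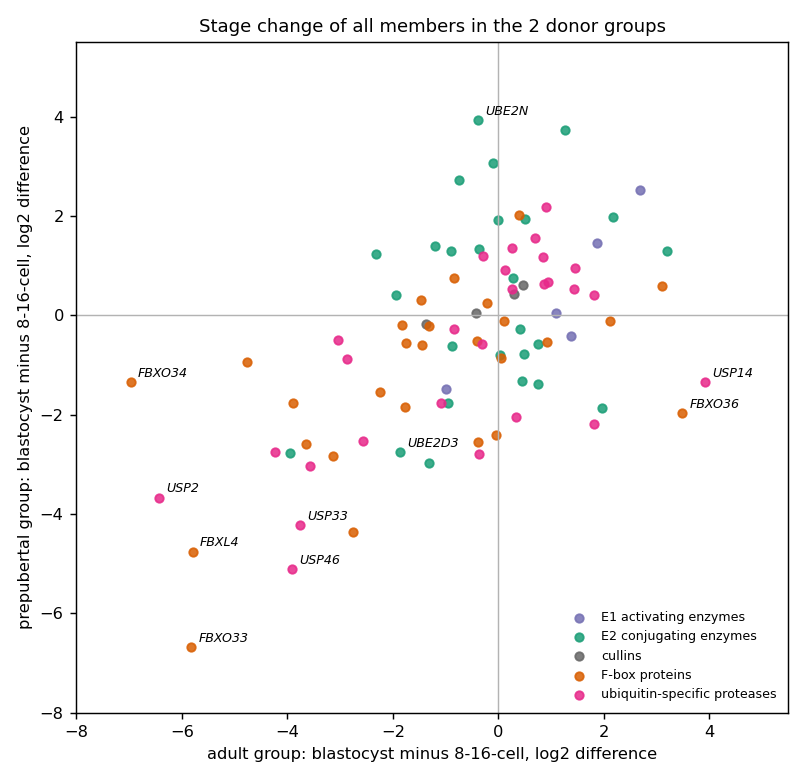
Log2 stage difference (blastocyst minus 8-16-cell) of each of the 89 genes in the prepubertal group (vertical axis) against the adult group (horizontal axis). FBXO33, FBXL4 and USP33, called in both groups, lie in the lower left, where 36 of the genes are.

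Between prepubertal and adult donors, no ubiquitin gene passed. At the 8-16-cell stage limma called 0 of the 89 genes, against 0.0208% of all probe sets, and 10 had an unadjusted p under 0.05 (4 higher and 6 lower in prepubertal embryos), against 9.02% of all probe sets. All probe sets had a median difference of 0.59 there, and the 89 genes one of 0.19. The value of the 89 genes turned to −0.28 with quantile normalization and −0.41 with median centring, where all probe sets had 0.05 and −0.008. Relative to all probe sets the 89 genes were at −0.40 before and at −0.33 and −0.40 with these settings. Without the array of high background the value of the 89 genes was 0.41, against 0.29 for all probe sets. UBE2N had the smallest p: it was at least 2.95-fold lower in prepubertal 8-16-cell embryos (log2 difference −5.11, SE 1.47, limma's adjusted p = 0.28), without overlap. USP4 read 13.23, 8.86 and 10.04 in prepubertal and 4.54, 7.98 and 4.81 in adult 8-16-cell embryos, where it lay at background. With the adult signals raised to background, USP4 was 7.84-fold higher in prepubertal embryos (log2 difference 4.93, SE 1.52, limma's adjusted p = 0.359). That is no strict bound, since the 10.04, from the array of high background, also lay at background. UBE2V2 differed by −3.32 (SE 1.37), also without overlap, and by −2.05 without the array of high background. UBE2K, which builds chains linked through lysine 48, read 13.21, 10.07 and 6.88 in prepubertal and 13.93, 13.15 and 12.43 in adult 8-16-cell embryos (log2 difference −3.12, SE 1.17, limma's adjusted p = 0.429), and these overlapped. Without the array of high background, which gave the 6.88, the UBE2K difference was −1.53. FBXL20 read 11.70, 4.93 and 7.77 in prepubertal and 12.23, 11.64 and 12.47 in adult 8-16-cell embryos (log2 difference −3.98, SE 1.50, limma's adjusted p = 0.429), and these overlapped. A second FBXL20 probe set, above background on 7 arrays, went the other way, with 2.43. Groups did not overlap for 4 genes that were higher and 4 that were lower in prepubertal 8-16-cell embryos, each 4.49% of the 89. The shares were 10.0% and 2.67% of all probe sets, and 8.74% and 3.53% of the 9155 genes.

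In blastocysts limma called 0 of the 89 genes between prepubertal and adult donors, and 0.0% of all probe sets. An unadjusted p under 0.05 was found for 5 of the genes, against 3.68% of all probe sets. FBXO34 had the largest difference: the 11.14, 9.02 and 8.26 of prepubertal blastocysts lay above the 5.38, 4.77 and 4.82 of adult blastocysts, which were at background. That is at least 2.92-fold higher in prepubertal blastocysts (log2 difference 4.49, SE 1.48), and limma's adjusted p was 0.9996. FBXO36 differed the other way, with 4.50, 5.72 and 4.90 in prepubertal and 7.69, 8.12 and 8.51 in adult blastocysts, at least 1.25-fold lower in prepubertal blastocysts (log2 difference −3.07, SE 1.21). UBE2G2 read 12.08, 9.54 and 10.04 in prepubertal and 4.86, 8.93 and 8.09 in adult blastocysts (log2 difference 3.26, SE 1.45). The second UBE2G2 probe set differed by 0.81. UBE2J2, which like UBE2G2 serves the endoplasmic reticulum, differed by 2.54 (SE 1.19) but was at background on all arrays. USP14 differed by −2.99 (SE 1.47), with overlapping groups, and its second probe set by 2.07. All 5 had limma's adjusted p of 0.9996. Groups did not overlap for 9 genes that were higher and 2 that were lower in prepubertal blastocysts, 10.1% and 2.25% of the 89. The shares were 6.04% and 3.78% of all probe sets, and 6.39% and 3.84% of the 9155 genes.

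The change between stages was also compared between donor groups, as the prepubertal minus the adult stage difference. limma called 0 of the 89 genes and 0.0% of all probe sets, and 6 of the genes had an unadjusted p under 0.05, against 5.44% of all probe sets. FBXO36 had a difference of −5.46 (SE 1.71, limma's adjusted p = 0.766) and USP14 one of −5.26 (SE 2.07, limma's adjusted p = 0.873). The second USP14 probe set gave 1.56 there. UBE2K had a difference of 3.49 (SE 1.66), which was 1.90 without the array of high background, and UBE2N one of 4.33 (SE 2.07), each with limma's adjusted p at 0.913. The genes called in only 1 donor group, FBXO34, USP2 and USP46, are therefore not shown to differ between donor groups.

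Other genes of the pathway were read with the same fit. Of a list of 85 genes, 57 were measured, covering cullin partners, the anaphase-promoting complex, other ligases and other deubiquitinases. In the prepubertal group UBE3A and COPS8 rose and ELOC fell, and in the adult group ELOC alone fell. Of all 9155 genes, 3.95% were called in the prepubertal and 3.17% in the adult group, in either direction. The median difference of the 57 was 0.31 in the prepubertal and 0.82 in the adult group, against −0.16 and 0.13 for all genes. ELOC, elongin C, links target receptors to CUL2 and CUL5. It read 13.74, 13.88 and 15.05 in prepubertal blastocysts and 16.67, 15.77 and 18.55 in prepubertal 8-16-cell embryos. In adult embryos ELOC read 10.86, 12.48 and 14.26 in blastocysts and 16.31, 16.21 and 16.11 in 8-16-cell embryos. The stages did not overlap in either group, and ELOC differed by −2.77 in the prepubertal (SE 0.71, limma's adjusted p = 0.0126) and −3.67 in the adult group (SE 0.71, limma's adjusted p = 0.00028). The prepubertal call was lost without the third prepubertal 8-16-cell array (−1.99) or the first or second prepubertal blastocyst array (−2.53 and −2.60). Both ELOC calls were lost when limma was run without the variance trend. Its adjusted p was then 0.264 in the prepubertal and 0.100 in the adult group.

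**Figure D5:**
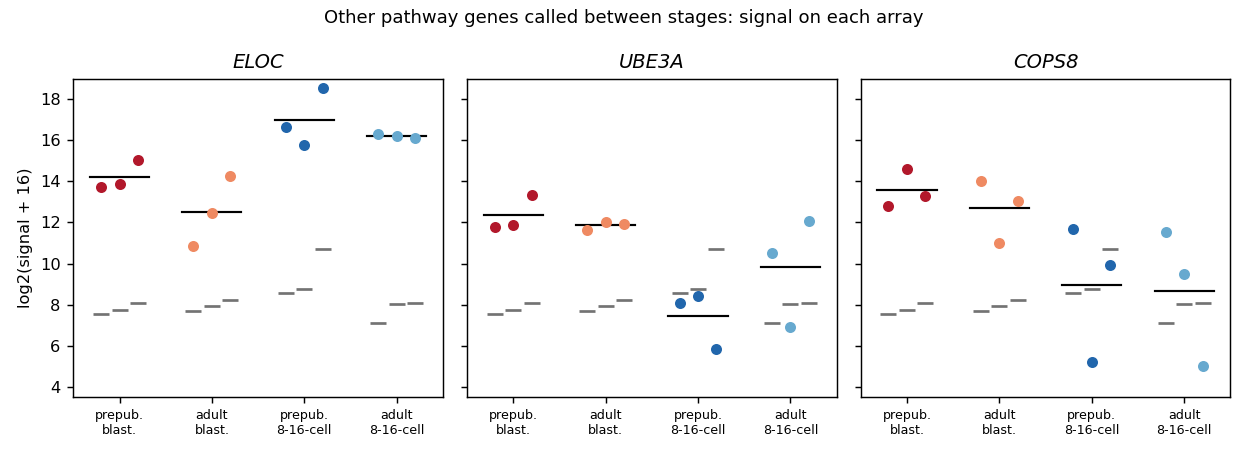
Signal of the 3 other pathway genes called between stages, as log2(signal + 16) on the vertical axis, on each array (points) of the 4 groups on the horizontal axis, with the group mean as a black line and each array's background as a grey tick. ELOC is lower in blastocysts of both donor groups, and UBE3A lies at background on all 3 prepubertal 8-16-cell arrays.

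UBE3A, the ligase that is lost in Angelman syndrome in humans, read 11.80, 11.90 and 13.35 in prepubertal blastocysts and 8.08, 8.41 and 5.81 in prepubertal 8-16-cell embryos, where it lay at background. It was at least 8.05-fold higher in prepubertal blastocysts (log2 difference 4.92, SE 1.40, limma's adjusted p = 0.0291). COPS8, a subunit of the COP9 signalosome that removes NEDD8 from cullins, read 12.78, 14.61 and 13.31 in prepubertal blastocysts and 11.69, 5.20 and 9.93 in prepubertal 8-16-cell embryos (log2 difference 4.63, SE 1.37, limma's adjusted p = 0.04). In adult embryos UBE3A differed by 2.05 (limma's adjusted p = 0.678) and COPS8 by 4.03 (limma's adjusted p = 0.103). The UBE3A call was lost without the third prepubertal 8-16-cell array (4.11) or any 1 prepubertal blastocyst array (5.20, 5.15 and 4.42). The COPS8 call was lost without the second prepubertal 8-16-cell array (2.76) or any 1 prepubertal blastocyst array (5.02, 4.11 and 4.76).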

How the data were processed

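The authors deposited 1 signal intensity for each probe set of 12 Affymetrix bovine arrays, which they computed with MAS5, per the submitters' processing notes. No source used here gives its version or settings. Per the labels, RNA was amplified with a whole-transcript kit before labelling, which can distort low signals. The trimmed mean of every array (2% off each end) was 500.19 to 500.31, so arrays had been scaled to a common level, and no further normalization was applied. Probe sets were named by the platform annotation: 13292 named 1 gene, 86 several and 10638 none. Current symbols were found for 88 of the 89 genes in RefSeq, and USP53 kept the annotation's name.

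In R 4.3.3, limma 3.58.1 fitted a mean per group to log2(signal + 16) of the 24016 probe sets that are not controls, over the 12 arrays together, and eBayes used a variance trend. The test was two-sided, with Benjamini-Hochberg adjustment over all probe sets and a threshold of 0.05. The prior carried 195.66 degrees of freedom and the residuals 8, so a gene's own spread counted for little, and the number of arrays limits the precision (median SE 1.30). Differences are blastocyst minus 8-16-cell, or prepubertal minus adult. The background would be too high if Bacillus RNA had been spiked in, which was not checked.

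The genes and lists were chosen with earlier results of these data known. For each stage comparison every called gene was named, filled to 10 with the smallest p at a difference of at least 1 (5 for donor comparisons), beside fixed genes (UBA1, UBA3, UBE2C, UBE2S, UBE2D3, CUL1, FBXO5, FBXW7 and USP14) and called pathway genes. CUL3, CUL4A and USP9X were also on the fixed list and are not analysed here. Replicate numbers did not pair arrays: deviations of same-numbered arrays had a median correlation of 0.018 across probe sets. Other pseudocounts, normalizations, filters, array weights, fits and the removal of each array were tried as alternatives. No sequences are shown.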

Additional observations from a re-analysis of the deposited data

How the results depend on the processing

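The count of called genes was 5 (adult) and 4 (prepubertal) between stages. In the adult group it was 2 with signals floored at the highest background (FBXO33 and USP33), where FBXL4, FBXO34 and USP2 lost their calls at −0.31, −1.25 and −1.22, and 8 with array weights. Leaving out 1 array gave 3 to 7, with 3 reached without array 1 or array 3 of adult 8-16-cell embryos or the second adult blastocyst array. In the prepubertal group it was 2 with array weights, and leaving out 1 array gave 2 to 5, with 5 (4 lower and UBE2K higher) without array 1 of prepubertal 8-16-cell embryos and 2 reached without the third prepubertal blastocyst array. With the replicate number as a block, 5 genes were called in each donor group, with UBE2D3 added in the prepubertal group. Every other alternative stayed within 1.5 times of these counts, and 0 genes were called in the donor comparisons and in their difference under each alternative run. Calls were also lost for FBXL4 (prepubertal) with a pseudocount of 64 (−3.63), median centring (−4.57), the floor (−0.44), array weights (−4.56) and a fit on the 6 arrays compared (−4.76), and for USP46 with the floor (−2.94) and array weights (−4.53). USP33 (adult) was lost without the variance trend (−3.77). Of the other pathway genes in the prepubertal group, ELOC lost its call in 6, UBE3A in 6 and COPS8 in 8 of 22 alternatives, and ELOC in the adult group in 1.

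Values that changed sign were all of genes that did not pass. UBE2N had a difference between donor groups of −0.042 with the floor. UBE2C in the prepubertal group was −0.86 with the floor and −0.39 with array weights, and −1.67 to 1.91 with 1 array left out. CUL1 there was −0.36 with the floor and −0.82 to 1.43 with 1 array left out, and in the adult group −1.10 to 0.25. UBE2S in the prepubertal group ran between −1.02 and 0.35, FBXO5 in the adult group between −0.77 and 0.47 and USP14 in the prepubertal group between −2.73 and 0.41 with 1 array left out, and USP14 was 0.25 with the floor. The causes were not tested. Of the called differences, none changed sign. The floor leaves out probe sets below it on every array. Signals near background limit what a fold can show: with the median control as background, 86.5% of the genes were above it in prepubertal blastocysts and 80.1% in adult blastocysts, against 77.9% in prepubertal and 81.6% in adult 8-16-cell embryos.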

Other observations

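Of the 89 genes, 33 had several probe sets (74 in all). The probe sets of a gene had the same sign of the stage difference for 19 of the 33 genes in the prepubertal and 24 in the adult group. Of those not chosen, FBXO33 and UBE2V2 were called in the prepubertal group and FBXO33 in the adult group. With every probe set read, 6 were called in each donor group.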
